A study of Homo sapiens with 12 samples.

Results

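The genes described here are 10 enzymes of serine, one-carbon, asparagine and proline synthesis and of mitochondrial phosphoenolpyruvate formation, taken by symbol from the 43236 genes counted in each library. PHGDH, PSAT1, PSPH, SHMT2, MTHFD2 and ALDH1L2 belong to serine and one-carbon metabolism, ASNS makes asparagine, PYCR1 and ALDH18A1 make proline, and PCK2 makes phosphoenolpyruvate. All 10 passed the filter on low counts, as did 15979 genes in all. The data are 12 RNA-seq libraries of MNNG/HOS, a chemically transformed human osteosarcoma cell line that the labels call HOS-MNNG. Cells were treated for 6 h or 24 h with 300 nM NXP800 or with DMSO, its solvent, and each of the 4 groups has 3 libraries. The labels name no engineered allele, and a single cell line stands for the disease. Nothing in the labels says that replicates came from separate cultures. The study states in general that its results average at least 3 independent experiments, and its RNA-seq legend gives N = 3. What sets the RNA-seq replicates apart is not described, so p-values measure the spread between these libraries, which may be technical.

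NXP800 is a small molecule that the study describes as an activator of GCN2, a kinase that senses amino acid shortage and phosphorylates eIF2α. Phosphorylated eIF2α lowers general protein synthesis and favours translation of the transcription factor ATF4, and genes for amino acid synthesis and transfer RNA charging are among its known targets. In the serine pathway, PHGDH, PSAT1 and PSPH convert a glycolytic intermediate to serine in the cytosol. In mitochondria SHMT2 then splits serine to glycine and passes a carbon to tetrahydrofolate, MTHFD2 oxidizes that carbon unit, and ALDH1L2 can oxidize it further to CO2 with formation of NADPH. Many of these reactions also have a cytosolic enzyme encoded by a separate gene.

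Between 30810614 and 31947656 read counts fell on genes in a library. Reads outside any gene made up 6.66 to 8.14% of the 6 h libraries but 2.73 to 3.67% of the 24 h libraries, so time of treatment and library set cannot be told apart, and each NXP800 group was compared with DMSO of its own time. Of 10 osteoblast and mesenchymal markers, RUNX2, COL1A1, SPARC, SPP1 and VIM were present in every library, whereas SP7, ALPL, BGLAP, IBSP and COL1A2 did not exceed 0.378 CPM (read counts scaled to library size). Among 8 markers of epithelium, blood and endothelium, EPCAM lay between 5.59 and 10.2 CPM and CD68 between 60.9 and 154 CPM, while the others did not exceed 0.914 CPM. Levels are CPM after TMM scaling, which corrects for library size and composition. A gene is said to have risen or fallen when the adjusted p of edgeR's quasi-likelihood test was below 0.05.

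NXP800 raised 8 of the 10 genes at 6 h and the same 8 at 24 h, and none fell. Over all genes tested, 25.0% rose at 6 h and 27.5% at 24 h. The 10 genes were chosen with earlier results of these data known, so comparisons of the 10 with all genes are descriptive. The 2 genes that did not pass were PHGDH, the entry enzyme of serine synthesis, and ALDH18A1, the entry enzyme of proline synthesis from glutamate. For PHGDH this depended on the fit, as given below. With the replicate number as a block in edgeR's fit, PHGDH rose at 6 h (adjusted p = 0.000351) and at 24 h (0.000932). ALDH18A1 did not pass in that fit either (adjusted p = 0.198 and 0.194). The median log2 fold change of the 10 was 1.03 at 6 h and 0.89 at 24 h, against -0.046 and -0.0033 over all genes tested. Summed over the 10 genes, the level went from 1534 ± 150 CPM in DMSO to 2992 ± 68.7 CPM in NXP800 at 6 h, and from 1794 ± 247 to 3032 ± 174 CPM at 24 h (SD, n = 3). A sum of this kind cannot separate more transcript per cell from a change in the other RNA of the cell. For the 8 genes that rose, every NXP800 library lay above every DMSO library of its time. Such a gap was seen upward for 29.3% of all genes tested at 6 h and for 29.0% at 24 h.

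**Figure D1:**
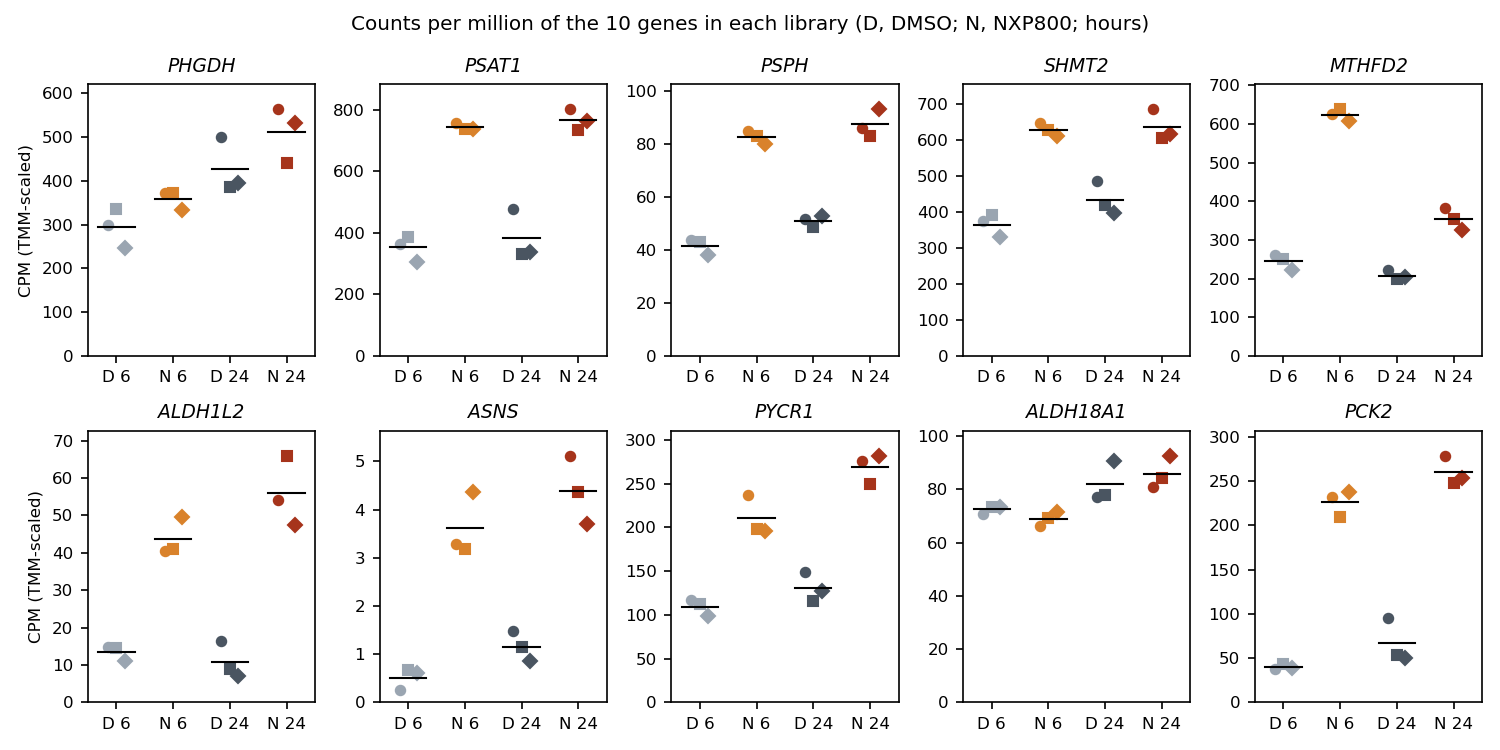
CPM after TMM scaling (vertical axes, linear from 0, one scale for each gene) of the 10 genes in the 12 libraries; circles, squares and diamonds are replicates 1, 2 and 3, and bars are group means. The NXP800 points lie above all DMSO points of their time for 8 genes, while those of PHGDH and ALDH18A1 overlap with DMSO, and DMSO 24 h replicate 1 stands highest of its group for PCK2 (95.4 CPM) and ALDH1L2 (16.5 CPM).

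Divided by the length of the canonical transcript, the levels spanned a wide range in DMSO at 6 h. SHMT2 (169 ± 14.5 CPM per kb), PSAT1 (160 ± 18.9) and PHGDH (158 ± 24.5) stood together at the top, and their spreads overlapped. MTHFD2 followed at 55.5 ± 4.60 and PYCR1 at 48.2 ± 4.16 CPM per kb. ALDH18A1 (21.6 ± 0.439), PSPH (21.0 ± 1.54) and PCK2 (18.5 ± 1.40 CPM per kb) formed a lower set in which ALDH18A1 and PSPH did not differ beyond their spread. ALDH1L2 stood at 1.82 ± 0.282 and ASNS at 0.213 ± 0.0930 CPM per kb (SD, n = 3 throughout). The ASNS value cannot be ranked with the others or read as its abundance. Only 11 of its 2385 canonical bases are free of a readthrough transcript, as given below. With NXP800 at 6 h PCK2 reached 104 ± 6.99 CPM per kb and lay beside PYCR1 at 92.8 ± 10.1. With ASNS left aside, PSAT1 led the 10 genes at 338 ± 5.40 CPM per kb.

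The plot of fold changes shows how unevenly the 10 genes responded. ASNS (from few counts, with a limit given below), PCK2 and ALDH1L2 had the largest changes. PSAT1, PSPH, SHMT2, MTHFD2 and PYCR1 moved by between 1.46- and 2.55-fold at either time. Of the 10 genes, 5 rose more than 2-fold at 6 h by the point estimate (PSAT1, MTHFD2, ALDH1L2, ASNS and PCK2), where 6.02% of all genes tested did so. At 24 h the genes over 2-fold were PSAT1, ALDH1L2, ASNS, PYCR1 and PCK2, against 6.73% of all genes tested.

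**Figure D2:**
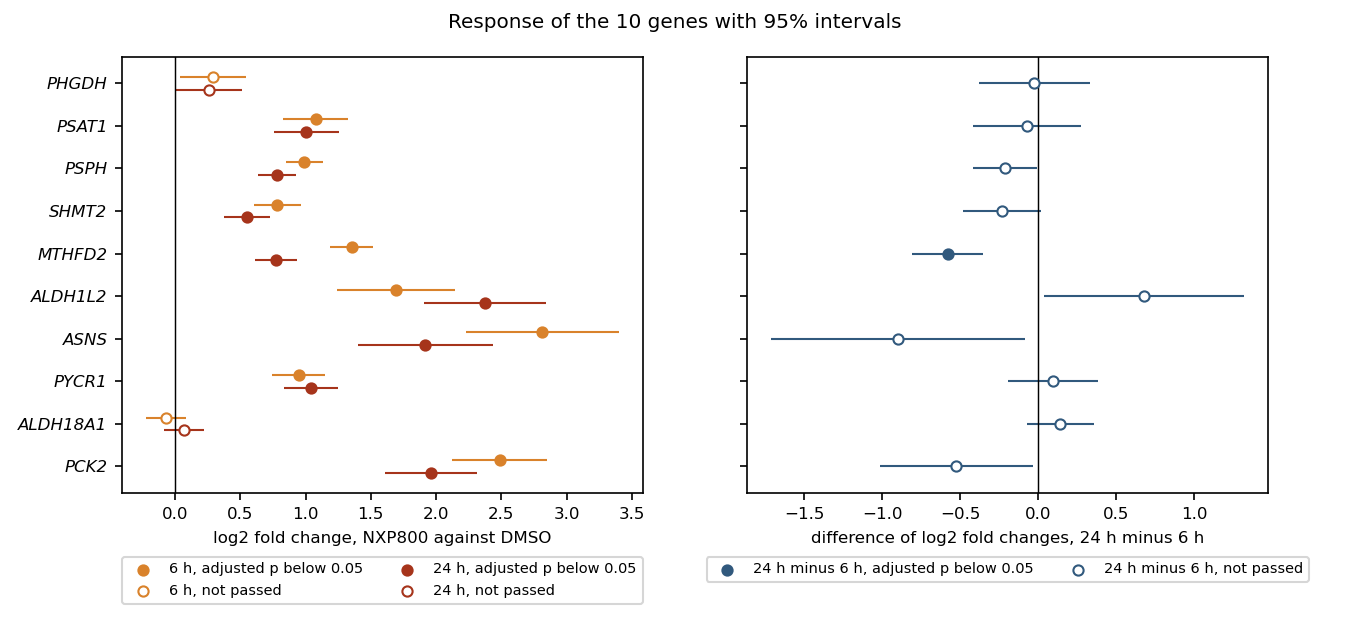
Left, log2 fold change of NXP800 against DMSO for each gene at 6 h and 24 h; right, the difference between these responses (24 h minus 6 h); lines are 95% intervals from edgeR's quasi-likelihood fit and filled points passed an adjusted p below 0.05. On the right only MTHFD2, at -0.58, is filled.

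Among the enzymes that make serine, PHGDH, which oxidizes phosphoglycerate, changed least. At 6 h its level was 299, 337 and 246 CPM in DMSO replicates 1 to 3 and 371, 371 and 334 CPM in NXP800. At 24 h it was 501, 385 and 395 CPM in DMSO and 564, 441 and 532 CPM in NXP800. The groups overlapped at both times, but within each replicate number the NXP800 library was the higher, in 6 of 6 pairs. The log2 fold change was 0.29 (95% interval 0.037 to 0.54, adjusted p = 0.0515) at 6 h and 0.26 (0.010 to 0.51, adjusted p = 0.0711) at 24 h. Libraries with the same replicate number deviated together across genes, and with that number as a block the adjusted p of edgeR was 0.000351 at 6 h (log2 fold change 0.30) and 0.000932 at 24 h (0.26), so the call for PHGDH depends on the fit. Without the block it also passed at 6 h when DMSO 6 h replicate 2 was left out (0.40, adjusted p = 0.0176) and at 24 h when DMSO 24 h replicate 1 was left out (0.39, adjusted p = 0.0109). In all, PHGDH passed in 5 of 12 fits that left out a library at 6 h, with adjusted p up to 0.236 over the 12, and in 3 of 12 at 24 h, up to 0.242.

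PSAT1, the aminotransferase that follows PHGDH and draws on glutamate, roughly doubled. Its level at 6 h was 365, 387 and 306 CPM in DMSO and 758, 738 and 737 CPM in NXP800, so that the log2 fold change was 1.08 ± 0.117 (SE, adjusted p = 1.3e-06). At 24 h it was 479, 331 and 337 CPM in DMSO and 802, 736 and 764 CPM in NXP800, a change of 1.00 ± 0.117 (adjusted p = 2.16e-06). The NXP800 libraries lay within a narrow band at both times, and most of the spread was in DMSO. PSPH, the phosphatase that releases serine, was at 43.7, 42.8 and 38.1 CPM in DMSO and 84.9, 82.9 and 80.0 CPM in NXP800 at 6 h. At 24 h PSPH was at 51.5, 48.5 and 52.7 CPM in DMSO and 86.0, 83.1 and 93.0 CPM in NXP800. PSPH rose by 0.99 ± 0.0687 log2 units at 6 h (adjusted p = 9.46e-09) and by 0.78 ± 0.0682 at 24 h (adjusted p = 8.93e-08), with a gap between groups that was several times the spread of the replicates. Thus the steps after PHGDH rose by about 1 log2 unit at 6 h, and the interval of PHGDH (up to 0.54) lay below those of PSAT1 (from 0.83) and PSPH (from 0.85).

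SHMT2, the mitochondrial hydroxymethyltransferase, was at 374, 391 and 331 CPM in DMSO and 647, 628 and 612 CPM in NXP800 at 6 h. At 24 h it was at 487, 420 and 398 CPM in DMSO and 687, 606 and 617 CPM in NXP800. No library overlapped between treatments, and SHMT2 rose by 0.78 ± 0.0838 at 6 h (adjusted p = 1.08e-06) and by 0.55 ± 0.0835 at 24 h on the log2 scale (adjusted p = 3.62e-05). MTHFD2, which oxidizes methylene-tetrahydrofolate in mitochondria, was at 260, 251 and 222 CPM in DMSO and 625, 638 and 607 CPM in NXP800 at 6 h. At 24 h MTHFD2 was at 222, 198 and 204 CPM in DMSO and 384, 354 and 326 CPM in NXP800. It rose at both times, by 1.35 ± 0.0767 at 6 h (adjusted p = 1.09e-09) and by 0.77 ± 0.0761 at 24 h (adjusted p = 3.47e-07).

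ALDH1L2, the mitochondrial formyltetrahydrofolate dehydrogenase, had the lowest level per transcript length and the largest fold change of the 3 one-carbon enzymes among the 10 genes, SHMT2, MTHFD2 and ALDH1L2, a difference between genes that was not tested. It was at 14.9, 14.5 and 11.1 CPM in DMSO and 40.4, 41.2 and 49.5 CPM in NXP800 at 6 h, and rose by 1.69 ± 0.214 (log2, adjusted p = 6.48e-06). At 24 h it was at 16.5, 8.88 and 6.97 CPM in DMSO and 54.3, 66.0 and 47.4 CPM in NXP800, a rise of 2.37 ± 0.220 (adjusted p = 1.78e-07). The DMSO libraries at 24 h were spread over more than 2-fold, with replicate 1 the highest, and without that library the 24 h rise was 2.82 (adjusted p = 1.93e-09).

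Of the paralogous genes for related folate enzymes, SHMT1 and MTHFD1 fell at both times. SHMT1, the cytosolic counterpart of SHMT2, fell from 69.9 ± 4.80 to 46.2 ± 0.485 CPM at 6 h (log2 -0.60 ± 0.0681, adjusted p = 2.22e-06) and from 93.4 ± 3.98 to 57.0 ± 3.96 CPM at 24 h (-0.71 ± 0.0676, adjusted p = 2.22e-07). MTHFD1, the trifunctional cytosolic folate enzyme, fell from 496 ± 14.6 to 413 ± 6.73 CPM at 6 h (-0.26 ± 0.0583, adjusted p = 0.00125) and from 511 ± 21.7 to 342 ± 10.7 CPM at 24 h (-0.58 ± 0.0585, adjusted p = 4.56e-07). In both genes every NXP800 library lay below every DMSO library of its time, a gap seen downward for 32.7% of all genes tested at 6 h and 30.1% at 24 h. MTHFD2L, a mitochondrial relative of MTHFD2, had a change of -0.017 (log2) at 6 h (adjusted p = 0.909) and fell by 0.32 at 24 h (adjusted p = 0.0352), where its groups overlapped and leaving out any of 4 single libraries ended the call: DMSO 24 h replicate 1 (-0.22, adjusted p = 0.171) or 2 (-0.32, 0.0711), or NXP800 24 h replicate 2 (-0.24, 0.160) or 3 (-0.27, 0.104). That call was also lost with library size as the only scaling (-0.23, adjusted p = 0.117), with no filter on low counts (-0.30, 0.0717) and with the 6 libraries of 24 h alone (-0.30, 0.109). ALDH1L1, the cytosolic counterpart of ALDH1L2, had 4 to 11 counts in a library and did not pass at either time (adjusted p = 0.879 and 0.548).

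Within a library the ratio of a gene to its paralogue does not depend on scaling, and in each pair described here it moved toward the gene among the 10. The log2 ratio of SHMT2 to SHMT1 counts was between 2.29 and 2.49 in DMSO and between 3.72 and 3.82 in NXP800 at 6 h, and between 2.10 and 2.44 against 3.33 and 3.61 at 24 h. Averaged over both times the ratio rose by 1.32. The ratio of MTHFD2 to MTHFD1 rose by 1.48, from a mean of -1.03 to 0.59 at 6 h and from -1.30 to 0.050 at 24 h. That of MTHFD2 to MTHFD2L rose by 1.23, and that of ALDH1L2 to ALDH1L1 by 2.28 with few ALDH1L1 counts behind it. In each of these pairs all 6 NXP800 libraries lay above all DMSO libraries of their time. An exact two-sided permutation test within time points gave p = 0.005 for each, the smallest that its 400 arrangements allow, and 0.005 after adjustment over the 6 pairs tested. SHMT2, MTHFD2 and ALDH1L2 already showed such a gap on their own, so these p-values are not evidence separate from their rises.

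**Figure D3:**
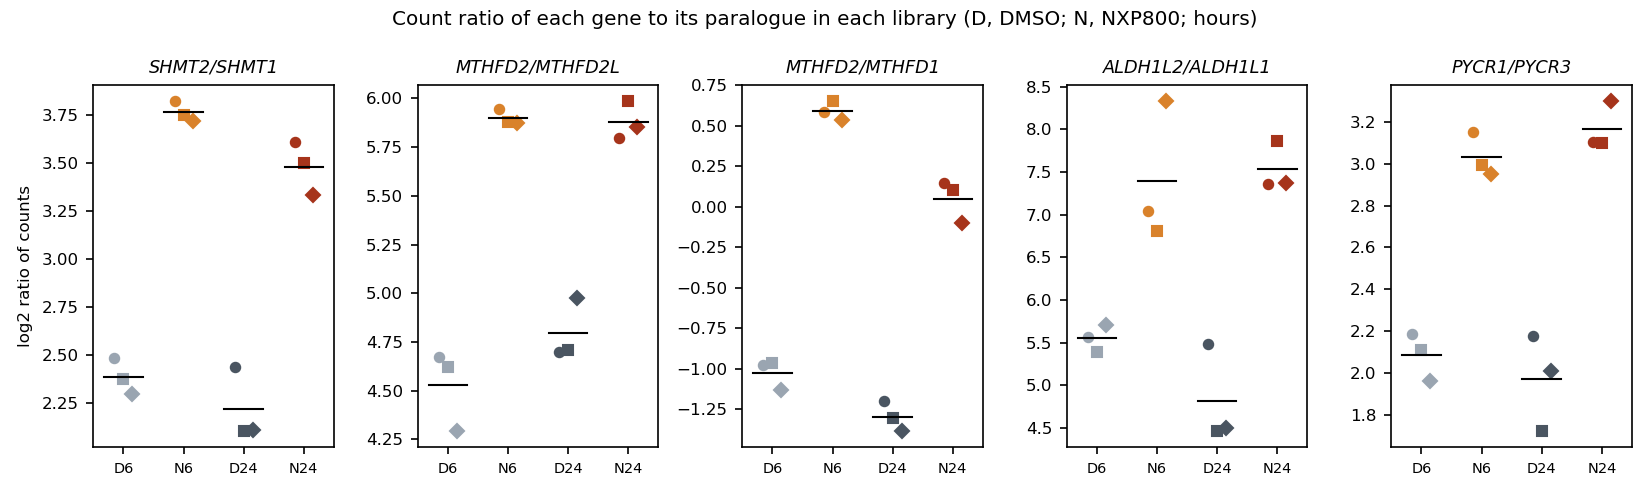
Log2 ratio of the counts of a gene to those of its paralogue (vertical axes, a separate scale for each pair, not starting at 0) in the 12 libraries, with replicates 1, 2 and 3 as circles, squares and diamonds and bars as group means. In all 5 pairs shown the NXP800 libraries lie above the DMSO libraries of the same time, by 1.32 for SHMT2/SHMT1 and by 1.07 for PYCR1/PYCR3 on average over both times.

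ASNS, the enzyme that makes asparagine from aspartate and glutamine, had few counts. At 6 h there were 8, 21 and 20 counts in the DMSO libraries and 107, 104 and 142 in the NXP800 libraries, or 0.253, 0.662 and 0.608 CPM against 3.29, 3.18 and 4.36 CPM. At 24 h there were 44, 34 and 25 counts in DMSO and 155, 139 and 116 in NXP800, or 1.47, 1.14 and 0.858 CPM against 5.12, 4.36 and 3.70 CPM. The groups were far apart at both times, and ASNS rose by 2.82 ± 0.278 log2 units at 6 h (adjusted p = 4.6e-07) and by 1.92 ± 0.245 at 24 h (adjusted p = 5.92e-06).

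The level of ASNS in these counts cannot be read as its abundance. Its fold changes are likewise those of the few reads that the counter left to ASNS. Whether the whole transcript changed as much was not tested. ASNS lies on chromosome 7 of GRCh38.p14 from 97851677 to 97928441 on the minus strand, and all but 440 bases of that span are also within the readthrough gene CZ1P-ASNS. In the GENCODE models 99.5% of the canonical ASNS transcript is covered by exons of a readthrough transcript on the same strand, which leaves 11 of its 2385 bases to ASNS alone. CZ1P-ASNS itself had 1 to 5 counts in a library, and between 737607 and 840095 read pairs in a library were set aside by the counter as ambiguous between genes. How many of those came from ASNS was not tested, since the ambiguous pairs are given as a single total, which was 792259 ± 19800 in DMSO and 758474 ± 22400 in NXP800 at 6 h and 826047 ± 12800 and 817503 ± 27300 at 24 h (SD, n = 3).

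The ASNS promoter is shown because it was the one promoter window of these genes that held a searched motif. Sequence from 250 bases before to 50 after the annotated start was at hand from RefSeq (GRCh38.p14) for 6 of the 10 genes: PHGDH, PSAT1, MTHFD2, ASNS, ALDH18A1 and PCK2. These have 7 windows, 2 of them for ASNS, whose start sites at 97872408 and 97872165 lie inside the span of the gene and not at its outer end at 97928441. Both strands were searched for TGATGNAA, the form of the C/EBP-ATF response element bound by ATF4 dimers, and for TGACGTCA, the cyclic AMP response element, which do not overlap here. A match to the former was found in 3.62% of 35116 promoters and to the latter in 1.85%. The 120 bases below lie at chr7:97872429-97872548 on the minus strand, written 5′ to 3′, with the match in capitals. The first base of the match is at position -68 from the start at 97872408.
ASNS promoter: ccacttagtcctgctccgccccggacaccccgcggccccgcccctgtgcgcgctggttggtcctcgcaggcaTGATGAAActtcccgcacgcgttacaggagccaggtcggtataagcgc
The other 6 windows held neither motif, which says only that these letters are not within them.

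PYCR1, the mitochondrial reductase that completes proline synthesis, was at 117, 112 and 98.6 CPM in DMSO and 237, 199 and 196 CPM in NXP800 at 6 h. At 24 h it was at 149, 116 and 127 CPM in DMSO and 275, 250 and 282 CPM in NXP800. The groups were apart at both times. PYCR1 rose by 0.95 ± 0.0969 log2 units at 6 h (adjusted p = 6.72e-07) and by 1.04 ± 0.0968 at 24 h (adjusted p = 1.77e-07). ALDH18A1, the synthase upstream of PYCR1, was at 70.8, 73.2 and 73.5 CPM in DMSO and 66.2, 69.2 and 71.7 CPM in NXP800 at 6 h, and at 77.0, 77.9 and 90.7 against 80.8, 84.2 and 92.6 CPM at 24 h. Its groups overlapped at both times. The 95% interval of its log2 fold change was -0.22 to 0.082 at 6 h (adjusted p = 0.428) and from -0.083 to 0.22 at 24 h (adjusted p = 0.431), which lies wholly below the interval of PYCR1 (from 0.74 at 6 h and 0.84 at 24 h).

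The proline reductase PYCR3 did not pass at either time. PYCR3, the cytosolic member of the family, was at 25.7 ± 0.383 and 25.6 ± 0.876 CPM at 6 h (adjusted p = 0.975) and at 33.2 ± 1.73 and 29.9 ± 1.84 CPM at 24 h (log2 -0.15, adjusted p = 0.0797). With the replicate block the adjusted p of PYCR3 at 24 h was 0.0380, and without NXP800 24 h replicate 1 it was 0.0352 (-0.20). The ratio of PYCR1 to PYCR3 rose by 1.07 on the log2 scale, with an adjusted p of 0.005 by the exact permutation test. That p-value is not evidence separate from the rise of PYCR1 itself.

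PCK2, the mitochondrial carboxykinase that turns oxaloacetate to phosphoenolpyruvate, had a larger fold change at 6 h than the others of the 10 except ASNS, while at 24 h that of ALDH1L2 was larger. These differences between genes were not tested. PCK2 was at 38.1, 43.8 and 39.3 CPM in DMSO and 232, 209 and 238 CPM in NXP800 at 6 h, which gives a log2 fold change of 2.49 ± 0.171 (5.61-fold, adjusted p = 9.05e-09) that exceeded the change of 99.4% of all genes tested. At 24 h PCK2 was at 95.4, 54.1 and 50.5 CPM in DMSO and 279, 248 and 253 CPM in NXP800, a change of 1.96 ± 0.167 (3.90-fold, adjusted p = 6.36e-08). The NXP800 libraries agreed closely at both times, whereas DMSO 24 h replicate 1 was 1.83 times the mean of the other DMSO libraries at 24 h, and without it the change was 2.31 (adjusted p = 2.43e-11). PCK1, the cytosolic counterpart, had 0 counts in all 12 libraries, so no ratio of PCK2 to PCK1 was formed.

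DMSO 24 h replicate 1 was the highest library of its group in 8 of the 10 genes, where it was the highest for 33.8% of all genes tested. Its level was 2.08 times the mean of the other DMSO 24 h libraries for ALDH1L2, 1.47 times for ASNS, 1.43 times for PSAT1 and 1.28 times for PHGDH, against 1.10 times for MTHFD2 and 0.913 times for ALDH18A1. NXP800 24 h replicate 1 was the highest of its group in 6 of the 10, where it was the highest for 32.3% of all genes tested. Without DMSO 24 h replicate 1 the genes that rose at 24 h were 9, PHGDH having been added.

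**Figure D4:**
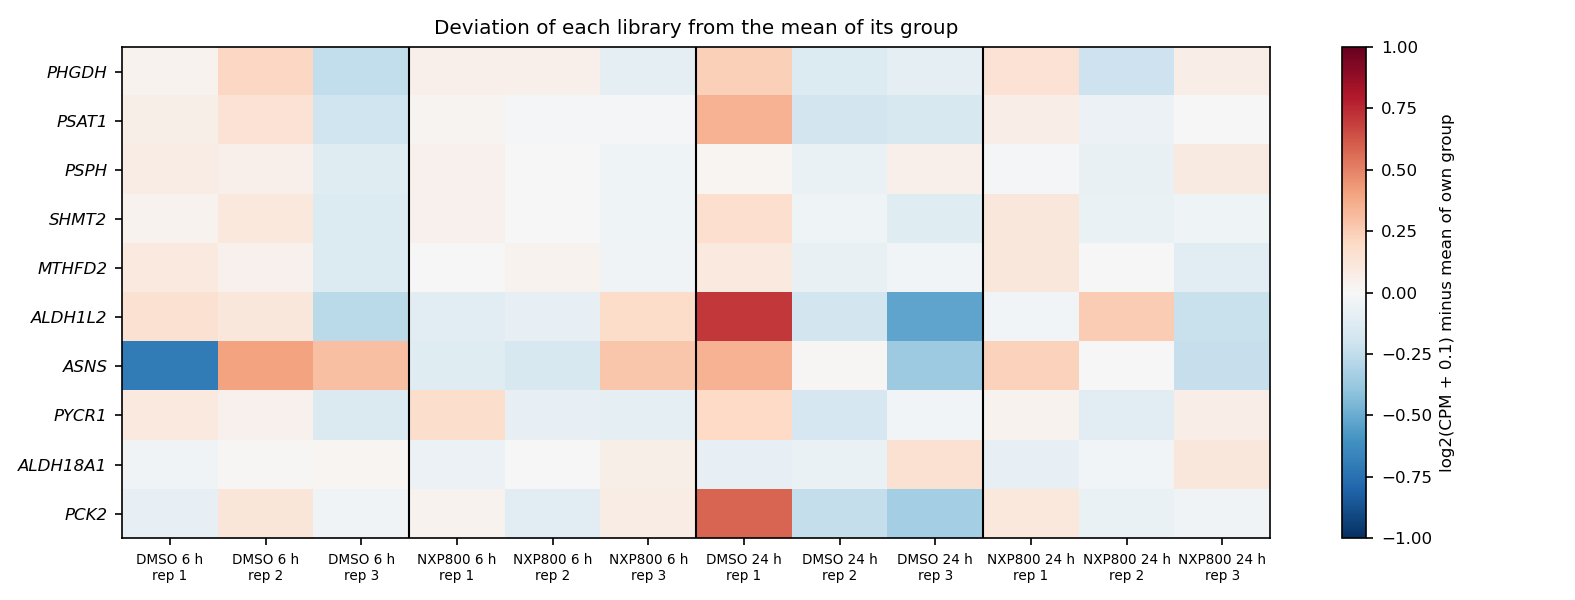
Deviation of each library from the mean of its own group on the log2(CPM + 0.1) scale (colour, red higher and blue lower) for the 10 genes, with libraries in columns ordered by group and replicate. DMSO 24 h replicate 1 is the highest of its group for 8 genes and darkest red for ALDH1L2 and PCK2, and the low ASNS value of DMSO 6 h replicate 1 rests on 8 counts.

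To ask whether the response changed with time, the log2 fold change at 6 h was subtracted from that at 24 h. Only MTHFD2 passed, with a difference of -0.58 (95% interval -0.81 to -0.35, adjusted p = 0.000925), so its rise was smaller at 24 h. Over all genes tested 25.8% passed this test and 13.8% passed downward, and 1 of 10 is below either share. In 18 alternative fits the MTHFD2 difference lay between -0.64 and -0.51 and its adjusted p did not exceed 0.00323. The next in size were ASNS at -0.90 (-1.71 to -0.084, adjusted p = 0.0989), ALDH1L2 at 0.68 (0.038 to 1.32, adjusted p = 0.113) and PCK2 at -0.53 (-1.01 to -0.037, adjusted p = 0.107). With the replicate number as a block 6 of the 10 genes passed, where 18.4% of all genes tested passed upward and 20.9% downward: MTHFD2 (-0.59, adjusted p = 5.64e-06), PCK2 (-0.47, 0.0153), SHMT2 (-0.24, 0.0165), PSPH (-0.21, 0.0215) and ASNS (-0.90, 0.0249) responded less at 24 h, and ALDH1L2 (0.71, 0.0191) responded more. These differences also move with DMSO 24 h replicate 1: without it the difference was -0.18 for PCK2 (adjusted p = 0.285), -0.69 for ASNS (0.243) and 1.12 for ALDH1L2 (0.00122). Without DMSO 24 h replicate 3 that of PCK2 was -0.69 (0.0275). PSAT1, PYCR1, PHGDH and ALDH18A1 did not pass in either fit, and the interval for PYCR1 was -0.19 to 0.38.

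Among the other genes of these pathways falls outnumbered rises. Of 52 other genes of these pathways 46 were tested, and 7 rose and 21 fell at 6 h and 9 rose and 24 fell at 24 h. Of all genes tested 25.0% rose and 27.8% fell at 6 h, and 27.5% rose and 28.6% fell at 24 h. The median log2 fold change of the 46 genes was -0.12 at 6 h and -0.26 at 24 h. These lists were written with earlier results of these data known, and their counts are descriptive.

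**Figure D5:**
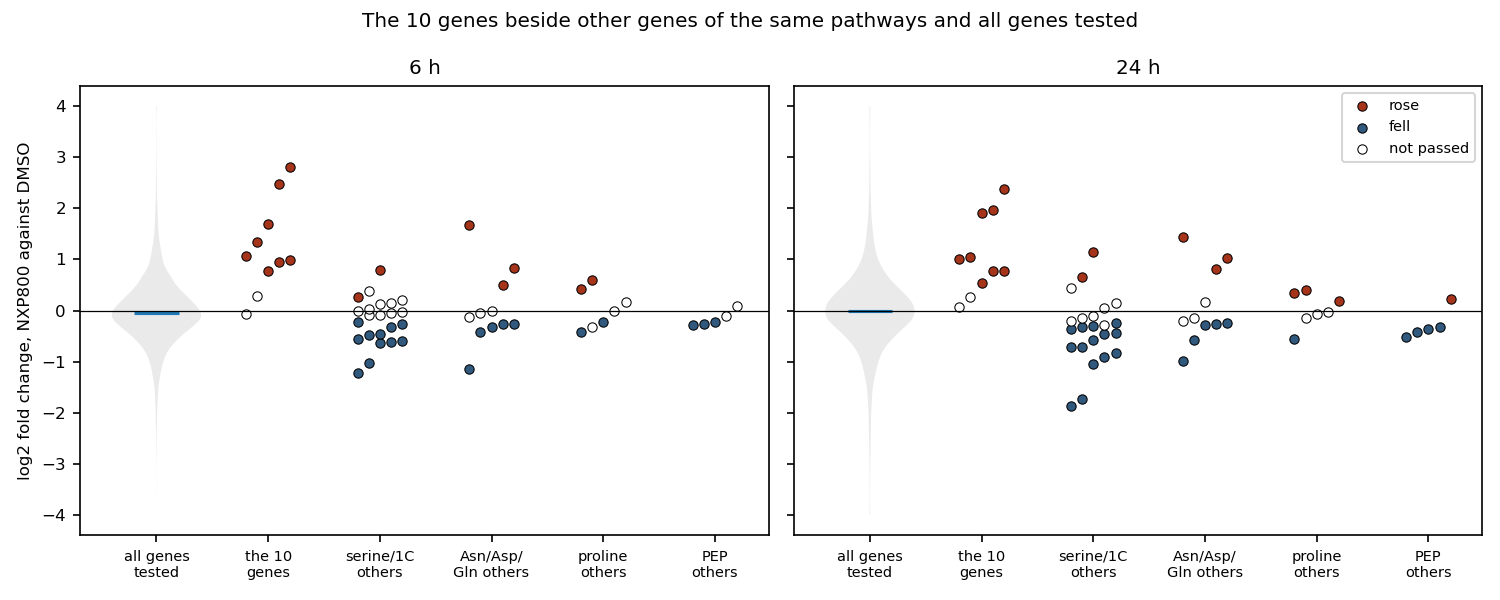
Log2 fold change of NXP800 against DMSO at 6 h (left) and 24 h (right) for all 15979 genes tested (grey distribution with its median, values beyond 4 drawn at 4), the 10 genes, and the other genes of the serine and one-carbon (1C), asparagine, aspartate and glutamine, proline, and phosphoenolpyruvate (PEP) lists; red points rose, blue points fell and white points did not pass. The 10 genes have a median of 1.03 at 6 h, whereas the other serine and one-carbon genes have a median of -0.083.

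In the serine, glycine and one-carbon list, 2 of 23 rose and 11 fell at 6 h, and 2 rose and 14 fell at 24 h. The gene that rose at both times was MTHFD1L, the mitochondrial formyltetrahydrofolate synthetase that acts after MTHFD2 (log2 0.79 ± 0.0787, adjusted p = 5.31e-07 at 6 h; 0.65 ± 0.0784, adjusted p = 3.09e-06 at 24 h). The mitochondrial folate carrier SLC25A32 rose by 0.26 at 6 h (adjusted p = 0.00414), and SDSL, a serine dehydratase relative, rose by 1.14 at 24 h (adjusted p = 3.44e-06). The falls at 6 h were led by the reduced folate carrier SLC19A1 (-1.23, adjusted p = 1.63e-09) and the sideroflexins SFXN3 (-1.03, adjusted p = 9.78e-07) and SFXN1 (-0.64, adjusted p = 7.24e-06), the latter a mitochondrial serine transporter. At 24 h the falls included those of the thymidylate synthase TYMS (-1.87, adjusted p = 1.17e-11) and of the folate hydrolase GGH (-1.05, adjusted p = 6.12e-08). TYMS also fell at 6 h, by 0.55 on the log2 scale. Mitochondrial genes of the list did not all move one way: beside the rise of MTHFD1L, GCSH and DLD, both of the mitochondrial glycine cleavage system and named after their values were seen, fell by 0.62 (adjusted p = 3.55e-06) and 0.22 (adjusted p = 0.00637) at 6 h and by 0.30 (adjusted p = 0.00285) and 0.45 (adjusted p = 1.07e-05) at 24 h. The system's other listed genes did not both follow. GLDC fell by 0.48 at 6 h (adjusted p = 0.0145) but did not pass at 24 h (-0.15, 0.45). AMT, with a mean log2 CPM of -1.97, passed at neither time (0.39 and 0.45, adjusted p = 0.72 and 0.648).

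In the asparagine, aspartate, glutamine and glutamate list, 3 of 11 genes rose and 5 fell at each time. The count that rose is near the share of all genes tested that rose, 25.0% at 6 h and 27.5% at 24 h. Of all genes tested 27.8% and 28.6% fell. GOT1, the cytosolic aspartate aminotransferase, rose by 1.67 at 6 h (adjusted p = 7.5e-09) and by 1.03 at 24 h (adjusted p = 9.41e-07), whereas its mitochondrial counterpart GOT2 fell by 0.42 (adjusted p = 6.16e-05) and 0.57 (adjusted p = 2.52e-06). Here the cytosolic gene is the one that rose, unlike SHMT1 beside SHMT2. NARS1, the asparaginyl-tRNA synthetase, rose by 0.84 and 0.81 (adjusted p = 1.3e-07 and 1.5e-07), and ASS1, which joins aspartate to citrulline, by 0.49 and 1.43 (adjusted p = 0.00917 and 4.21e-07). The mitochondrial aspartate-glutamate carrier SLC25A12 fell by 1.14 and 1.00 (adjusted p = 1.02e-07 and 3.52e-07), and its relative SLC25A13 fell by 0.28 at 24 h (adjusted p = 0.000831). ASRGL1, an asparaginase, fell by 0.33 at 6 h (adjusted p = 0.0234), a call lost without DMSO 6 h replicate 2 (-0.27, adjusted p = 0.0940) or 3 (-0.31, 0.0595) or without NXP800 6 h replicate 2 (-0.27, 0.101).

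Among 7 other proline genes 2 rose and 2 fell at 6 h and 3 rose and 1 fell at 24 h. At 6 h both counts are near the shares of all genes tested, of which 25.0% rose and 27.8% fell. At 24 h those shares were 27.5% and 28.6%. EPRS1, which charges transfer RNA with glutamate and proline, rose by 0.60 at 6 h (adjusted p = 1.64e-05) and by 0.41 at 24 h (adjusted p = 0.000508), and PARS2, its mitochondrial prolyl counterpart, rose by 0.34 at 24 h (adjusted p = 0.00663). OAT, which links ornithine to the proline precursor, fell by 0.42 (adjusted p = 3.33e-05) and 0.56 (adjusted p = 1.46e-06). PEPD, a dipeptidase that frees proline, fell by 0.23 at 6 h (adjusted p = 0.0110), a call lost without NXP800 6 h replicate 3 (-0.20, 0.0522). Of 5 tested genes around phosphoenolpyruvate, none rose and 3 fell at 6 h, and 1 rose and 4 fell at 24 h, in contrast to PCK2. The malate dehydrogenases fell at 6 h, MDH1 by 0.28 (adjusted p = 0.00382) and MDH2 by 0.27 (adjusted p = 0.00370), and again at 24 h, MDH1 by 0.53 (adjusted p = 1.22e-05) and MDH2 by 0.33 (adjusted p = 0.000719). Pyruvate kinase PKM fell by 0.42 at 24 h (adjusted p = 0.000156) and by 0.22 at 6 h (adjusted p = 0.0209), the latter lost without DMSO 6 h replicate 1 (-0.21, 0.0636), NXP800 6 h replicate 1 (-0.22, 0.0565) or NXP800 6 h replicate 2 (-0.20, 0.0733). At 24 h pyruvate carboxylase PC fell by 0.36 (adjusted p = 0.0171) and the phosphatase G6PC3 rose by 0.23 (adjusted p = 0.0240). Both have overlapping groups. The PC call was lost without DMSO 24 h replicate 2 (-0.31, 0.0657) or 3 (-0.26, 0.0994) and without NXP800 24 h replicate 1 (-0.28, 0.0828) or 2 (-0.31, 0.0710), as well as with library size only (-0.27, 0.0697), and that of G6PC3 without DMSO 24 h replicate 2 (0.19, 0.105) or 3 (0.19, 0.0992) or NXP800 24 h replicate 1 (0.13, 0.164).

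Likeness among the 10 genes was described by Pearson's r of each gene's standardized log2 CPM to the mean of the other 9 over the 12 libraries, which share treatment, time and library set. PYCR1 and PCK2 (both 0.983), PSPH (0.977), SHMT2 (0.973) and PSAT1 (0.962) followed the others most closely, with ASNS at 0.941 and ALDH1L2 at 0.885. MTHFD2 (0.650) and PHGDH (0.626) followed less, and ALDH18A1 (0.0885) hardly at all. Outside the 10, the genes most like their mean were SLC1A4 (0.992), a carrier of serine and other small neutral amino acids, MTHFD1L (0.990), SLC6A9 (0.988), a glycine transporter, AKNA (0.982) and CDC42EP1 (0.981).

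Overlapping gene models limit some of these values beside that of ASNS. In GENCODE, 36.8% of the canonical MTHFD2 transcript is covered by genes on the opposite strand, most of it by SLC4A5, which had 2 to 39 counts in a library. Such antisense cover is 19.8% for PYCR1. The libraries were made with a strand-specific kit, but the strand setting of the counter is not given in the sources used here, so reads of the covered parts cannot be assigned with certainty. PHGDH, PSAT1, PSPH, ALDH18A1 and PCK2 have no such cover, and SHMT2 (6.21%) and ALDH1L2 (1.95%) have little. Of the paralogues, MTHFD1 (14.6%), SHMT1 (7.28%) and MTHFD2L (6.96%) have antisense cover as well. It is less for ALDH1L1 (3.88%) and PYCR3 (0.449%).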

How the data were processed

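Cultured MNNG/HOS cells were treated in 4 groups of 3 libraries. Per the labels and the study's methods, the authors trimmed reads with fastp 0.20.1, aligned them with STAR 2.7.5a to hg38 (GRCh38.p14 is also named) and deposited raw counts per RefSeq gene made with HTSeq 0.12.4, without normalization. The strand setting and counting mode are not given in the sources used here. The no-feature, ambiguous and not-unique entries were kept out of library sizes and tests.

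Tests were run with edgeR 4.0.16 in R 4.3.3: filterByExpr, TMM, 1 model of the 4 groups and quasi-likelihood tests, with Benjamini-Hochberg adjustment over 15979 genes. CPM in the text are these counts over the TMM-scaled library size. With 30810614 to 31947656 counts in a library, the spread between replicates rather than counting sets the precision of genes with many counts. Counting also limits genes with few counts, such as ASNS, ALDH1L1 and AMT. Intervals are 95%. Log2 ratios used counts with a pseudocount of 1, averaged over both times, with an exact permutation of labels within time over 6 pairs. Procedures were tested on simulated data. Replicates of a group differed by more than sampling noise (chi-square divided by degrees of freedom, 7.36 to 26.3).

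Deviations from the group means correlated between same-numbered NXP800 and DMSO libraries (r of 0.159 to 0.329 over genes, which are not independent) and did not exceed 0.058 for other numbers, so the numbers were taken to pair the libraries, and fits with that block are given where they change a call. The source of the pairing is the replicate number in the labels alone.

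The 10 genes and the lists were chosen with earlier results of these data known. Named besides the 10 were their paralogues, for each list and time the 3 largest rises and 3 largest falls among called genes whose mean log2 CPM was 1 or more, and the 5 genes most like the 10; some genes that this gives, and 1 ratio, are not reported here. Symbols were read as deposited; positions and promoters are RefSeq on GRCh38.p14, and lengths and overlaps come from canonical transcripts of GENCODE, whose models can differ from those used for counting. Alternatives were DESeq2 1.42.0 (size factors, Wald test), library size only, no filter, only the 6 libraries of a time, a minimum of 10 counts in every library, an adjusted p below 0.01, the replicate block, leaving out each library, and pseudocounts of 0.5 and 5.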

Additional observations from a re-analysis of the deposited data

Results flagged for a closer look

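Responses that differed between 6 h and 24 h are given here for the genes named above. The test was edgeR's quasi-likelihood test of the difference (24 h minus 6 h, log2), without the replicate block unless stated. Among the 10 genes only MTHFD2 passed, with a difference of -0.58 (adjusted p = 0.000925), where 25.8% of all genes tested passed. With the replicate block 6 of the 10 passed, where 18.4% of all genes tested passed upward and 20.9% downward. Besides MTHFD2 these were PCK2, SHMT2, PSPH, ASNS and ALDH1L2, with values given above. Of the paralogues MTHFD1 passed without the block, with a deeper fall at 24 h and a difference of -0.32 (adjusted p = 0.0103). The folate genes TYMS and GGH fell more at 24 h than at 6 h, with differences of -1.32 (adjusted p = 2.4e-07) and -0.74 (adjusted p = 0.000474). SLC19A1 fell less at 24 h, with a difference of 0.40 (adjusted p = 0.00782), and so did GCSH, with a difference of 0.32 (adjusted p = 0.0337). The rise of ASS1 was larger at 24 h by 0.94 (adjusted p = 0.00309) and that of SDSL by 0.93 (adjusted p = 0.00289), while the rise of GOT1 was smaller, with a difference of -0.64 (adjusted p = 0.00684). Library sets of the 2 times differ in their share of reads on no gene, and their part in these differences was not tested.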

How the results depend on the processing

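The number of the 10 genes that rose at 6 h or 24 h lay between 7 and 9 under every alternative, with none falling; ASNS could not be tested with at least 10 counts in every library. For the difference of responses the count was 1, but 4 with no filter on low counts, 6 with the replicate block and 1 to 2 when single libraries were left out (2 without DMSO 24 h replicate 1 or 3); the cause was not tested. The block changed no other call of the 10 genes than those given above. PHGDH passed at 6 h in all 7 alternatives other than leaving out a library and at 24 h in 3 of 7. Values near 0 changed sign. The PHGDH difference was 0.040 with library size only and between -0.14 and 0.10 without single libraries, and that of PSAT1 between -0.17 and 0.12. MTHFD2L at 6 h was 0.014 with the 6 libraries of that time alone and between -0.044 and 0.035 without single libraries, ALDH1L1 at 6 h between -0.37 and 0.23, and PYCR3 at 6 h 0.013 with DESeq2's size factors, 0.014 with library size only, 0.030 with the 6 libraries, 0.013 with DESeq2's Wald test and between -0.030 and 0.028 without single libraries. The 5 ratios given kept direction and call in all alternatives, pairing by sign flips included (ALDH1L2 to ALDH1L1 between 2.04 and 2.45 without single libraries). In each pair the NXP800 libraries already lay above all DMSO libraries of their time. The calls thus had little room to change, and keeping them is not further evidence. Depth limits genes with few counts, such as ASNS, ALDH1L1 and AMT.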
